A study of Saccharomyces cerevisiae with 4 samples.

Results

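The genes described here code for 5 yeast phosphatases that act on the MAP kinases Slt2 or Hog1. They were picked by reading frame: MSG5 (YNL053W, chromosome XIV), SDP1 (YIL113W, chromosome IX), PTP2 (YOR208W, chromosome XV), PTP3 (YER075C, chromosome V) and PTC1 (YDL006W, chromosome IV). All 5 of these reading frames were found among the 6207 in the deposited table. The study grew a wsc1 mutant of Saccharomyces cerevisiae in the BY4741 background in rich medium (YEPD) at 24 °C and split each culture. One part received Congo Red at 30 µg/ml, a dye that binds wall glucan and chitin, and cells were collected at 4 h, while the other part grew on untreated. Both groups carry the wsc1 mutation, of a kind that the labels do not state, and no strain with an intact sensor gene was used here. Each of 4 arrays was hybridised with RNA of the treated and of the untreated part, with Congo Red RNA labelled with Cy3 on arrays 1 and 3 and with Cy5 on arrays 2 and 4. The design names 2 cultures, each with a dye swap, so the independent units number 2.

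A MAP kinase is switched on when the kinase above it adds phosphate to a threonine and a tyrosine in its activation loop, and phosphatases switch it off by removing either or both. Slt2 is the kinase of the cell wall integrity pathway, in which the plasma membrane sensor Wsc1 acts at the top and the transcription factor Rlm1 at the bottom. Hog1 is the MAP kinase of the response to high osmolarity. Some genes of such phosphatases are themselves transcribed more when the kinase is active, which makes a negative feedback loop. Msg5 and Sdp1 are related dual-specificity phosphatases that remove phosphate from both residues of Slt2, and Msg5 also acts on the mating kinase Fus3. Ptp2 and Ptp3 are tyrosine phosphatases that act on Hog1 and also on Slt2 and Fus3, with Ptp2 mostly in the nucleus and Ptp3 mostly in the cytoplasm. Ptc1 is a phosphatase of the PP2C class, which removes phosphate from serine and threonine, and it acts on Hog1.

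Every value below is a log ratio of Congo Red over untreated, read as log2, from the deposited table. That reading is likely and not settled, because neither the numerator nor the log base is stated. Its sign was taken from genes that the Slt2 and Rlm1 pathway raises, which were mostly above 0 on all arrays in an earlier analysis of these files, so no direction given here is independent of it. Between 3254 and 4991 reading frames had a value on an array, and 3080 (49.6%) had one on all 4 and were tested. Array medians lay between -0.14 and -0.08. A table of ratios gives no level of a transcript, so the 5 genes cannot be ranked by abundance. All 5 marker genes of mating type a, the mating type of BY4741, had a value on every array. Of 4 marker genes of mating type alpha, 2 had none on any array, MF(ALPHA)2 had values on 3 arrays and SAG1 on 1. The presence of a value is therefore no measure of mating type. In limma's test of culture means, 3 of the 5 (STE2, MFA2 and AGA2) were lower at an adjusted p under 0.05, against 1.07% of all tested genes. Over all tested genes, the 33 lower calls of this test became 0 with arrays centred on the median of the tested genes. They became 2 with medians of all measured rows and 2 with centring and scaling, so the 3 marker calls cannot all hold there.

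PTP2 lay at 1.01 and 0.75 on the arrays where it was measured, and MSG5, SDP1, PTP3 and PTC1 lay close to 0 with no call. The 16 values of those 4 genes comprised 6 above 0 and 10 below, and none was further from 0 than 0.41. In the test over all genes, Congo Red changed 80 of 3080 genes, or 2.6% (limma on culture means, adjusted p under 0.05). Of these, 47 were higher and 33 lower, a split that became 4 and 0 with arrays centred on the median of the tested genes, 30 and 2 with medians of all measured rows, and 29 and 2 with centring and scaling. Of the 4 phosphatase genes with a value on all arrays, 0 were called and 0 had an unadjusted p under 0.05, against 26.2% of all tested genes at that unadjusted level. On single arrays with a dye term 0 of the 4 were called as well, against 10.4% of all tested genes. With 4 genes, these counts of 0 do not stand apart from the shares of all tested genes. PTP2 could not enter these tests because it had no value on arrays 1 and 2.

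**Figure D1:**
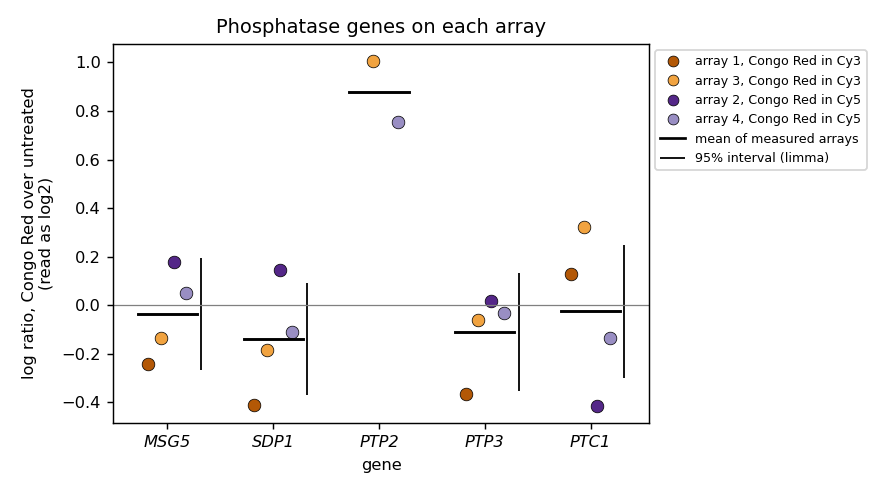
Log ratio (Congo Red over untreated, read as log2) of the 5 phosphatase genes on each array, with points coloured by array and dye orientation, a thick bar at the mean of the measured arrays and a thin line for the 95% interval of the limma fit where the gene was tested. PTP2 has points on arrays 3 and 4 alone, at 1.01 and 0.75, and no point of the other genes is above 0.32.

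MSG5, the gene of the dual-specificity phosphatase of Slt2 and Fus3, had log ratios of -0.24, 0.18, -0.14 and 0.051 on arrays 1 to 4. It was below 0 on both arrays with Congo Red in Cy3 and above 0 on both with Congo Red in Cy5, so its sign followed the dye. Its mean was -0.037 ± 0.087 (moderated SE, n = 2 cultures, adjusted p = 0.793). The 95% interval was -0.27 to 0.19, or 0.831-fold to 1.14-fold if the log base is 2. The mean turned to 0.053 after centring on the tested genes, to 0.073 after scaling too and to 0.082 after centring on all measured rows, with no call.

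SDP1, the gene of the related phosphatase of Slt2, had log ratios of -0.41, 0.15, -0.18 and -0.11 on arrays 1 to 4. Array 2 alone was above 0. The mean was -0.14 ± 0.087 (moderated SE, n = 2 cultures, adjusted p = 0.339), with a 95% interval of -0.37 to 0.092, or 0.774-fold to 1.07-fold. Of all tested genes, 58.1% had a mean further from 0. The MSG5 value exceeded that of SDP1 on all 4 arrays, by 0.033 to 0.17, and this difference was not tested. Exact tests on a single difference cannot go below p = 0.125 with 4 arrays or p = 0.5 with 2 cultures.

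PTP2, the gene of the nuclear tyrosine phosphatase, had no value on arrays 1 and 2, 1.01 on array 3 and 0.75 on array 4. These arrays have opposite dye orientation, and the sign was the same on both. Of all reading frames measured on both, 54.6% had opposite signs there and 11.8% were above 0 on both. Over the tested genes arrays 3 and 4 had a Pearson correlation of -0.053. Pairs with the same dye orientation had 0.64 (arrays 1 and 3) and 0.71 (arrays 2 and 4). The other pairs of opposite orientation lay at 0.019 to 0.33, so arrays were more alike by dye orientation. The mean of the PTP2 values was 0.88 ± 0.18 (SD, n = 2 arrays), a 1.84-fold increase if the log base is 2. On array 3 it stood above 97.8% of the measured reading frames and on array 4 above 98.0%. If arrays 2 and 4 had to be turned, the PTP2 mean would be 0.13, because its array 4 value would change sign.

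A fit on arrays 3 and 4 alone was added after the values had been seen, so that PTP2 could be set beside all 4237 reading frames measured on both. PTP2 had an SE of 0.24, a 95% interval of 0.33 to 1.43 and an unadjusted p of 0.00602 in limma's test, and was not called (adjusted p = 0.511). In that fit 9 genes, or 0.212%, were called, and 3.59% had an unadjusted p under 0.05. None of the sources used here says whether arrays 3 and 4 come from 1 culture or from 2, so the spread behind this p may be technical. A higher mean on these arrays was found for 46 reading frames.

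PTP2 was 1 of 583 reading frames measured on arrays 3 and 4 only, and 1 of these 583 had a higher mean. Empty cells were not spread evenly, with 47.6% of reading frames empty on array 1, 42.0% on array 2, 31.2% on array 3 and 19.6% on array 4. None of the sources used here gives the rule by which the authors left cells empty, and what emptied the PTP2 cells was not tested.

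**Figure D2:**
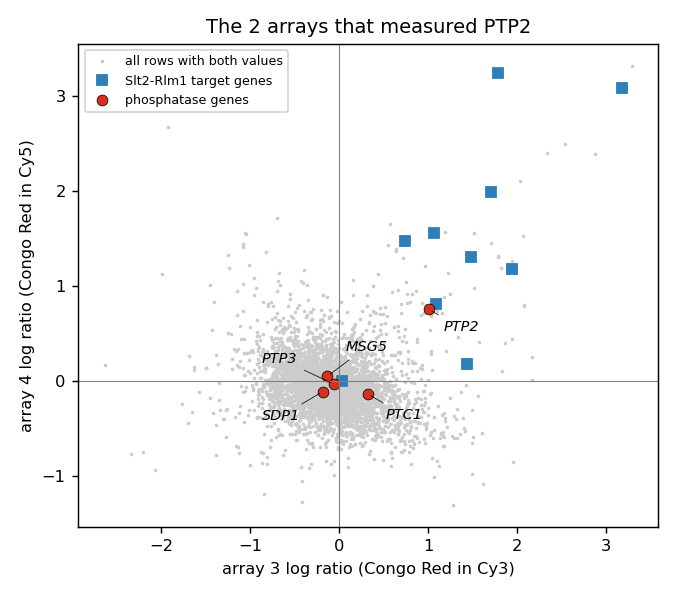
Log ratios on array 3 (Congo Red in Cy3, horizontal) and array 4 (Congo Red in Cy5, vertical) for the 4237 reading frames with both values, with the 5 phosphatase genes in red and 10 target genes of Slt2 and Rlm1 as blue squares. PTP2 lies at 1.01 and 0.75 among the target genes, while MSG5, SDP1, PTP3 and PTC1 lie in the main cloud.

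PTP3, the gene of the cytoplasmic tyrosine phosphatase, had log ratios of -0.36, 0.018, -0.059 and -0.032 on arrays 1 to 4. Array 1 was lowest and the other values lay within 0.1 of 0. The mean was -0.11 ± 0.092 (moderated SE, n = 2 cultures, adjusted p = 0.458), with a 95% interval of -0.35 to 0.13, or 0.783-fold to 1.10-fold. After centring on all measured rows the mean was 0.010. On arrays 3 and 4, where both tyrosine phosphatase genes were measured, PTP2 exceeded PTP3 by 1.06 and 0.79.

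PTC1, the gene of the PP2C phosphatase of Hog1, had log ratios of 0.13, -0.41, 0.32 and -0.13 on arrays 1 to 4. It was above 0 on both arrays with Congo Red in Cy3 and below 0 on both with Congo Red in Cy5, the reverse of the MSG5 pattern. Its mean was -0.024 ± 0.10 (moderated SE, n = 2 cultures, adjusted p = 0.890), with a 95% interval of -0.30 to 0.25, or 0.813-fold to 1.19-fold. PTC1 had the widest spread of the 4 tested phosphatase genes, with an SD over arrays of 0.32. The sign of its mean was not stable, at 0.033 to 0.095 with arrays centred or scaled and 0.25 if arrays 2 and 4 had to be turned. Single arrays with a dye term gave 0.024 without array 1 and 0.045 without array 2. PTC1 was not called in any of these fits.

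A dye part was tested with limma on the 4 single arrays, as the dye coefficient, so that arrays with Congo Red in Cy5 lie above the mean by this amount and those with it in Cy3 below it by the same amount. It was -0.25 ± 0.085 for PTC1 (moderated SE, unadjusted p = 0.0297, adjusted p = 0.102) and 0.15 ± 0.072 for MSG5 (adjusted p = 0.188). PTC1 was thus the only one of the 4 with an unadjusted p under 0.05 for the dye, against 37.2% of all tested genes. For SDP1 it was 0.16 ± 0.085 (adjusted p = 0.234) and for PTP3 0.10 ± 0.082 (adjusted p = 0.406). Thus 0 of the 4 genes had a called dye effect, against 16% of all tested genes, and for each of the 4 the dye part was larger in size or nearly as large as the mean. With 4 genes, 0 called dye effects do not stand apart from that share.

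Of the 4 phosphatase genes, 0 kept 1 sign over the 4 arrays, against 28.4% of all tested genes. A sign that followed the dye on all 4 arrays was found for MSG5 and PTC1 and for 28.7% of all tested genes. With 4 genes, neither count stands apart from the share of all tested genes.

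**Figure D3:**
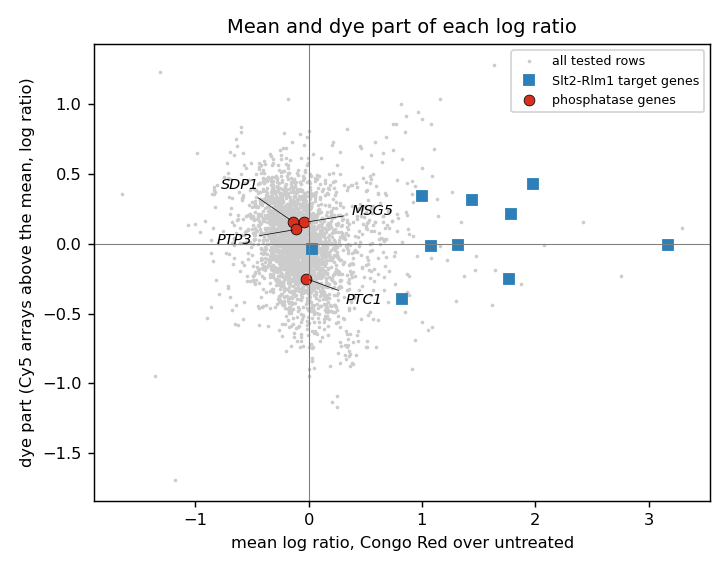
Mean log ratio (horizontal) and dye part, the amount by which arrays with Congo Red in Cy5 lie above the mean (vertical), for the 3080 tested genes, with the 4 tested phosphatase genes in red and 10 target genes of Slt2 and Rlm1 as blue squares. PTC1 lies lowest of the 4 in dye part, at -0.25, and MSG5, SDP1 and PTP3 lie between 0.10 and 0.16.

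Among the phosphatase genes themselves, 10 pairs were compared array by array, as values with no test. PTP2 exceeded each of the other 4 genes on both arrays it shared with them, by 0.68 to 1.19. MSG5, SDP1 and PTP3 lay nearest to each other, at Euclidean distances of 0.20 to 0.24 over the 4 arrays, and PTC1 was 0.76 to 0.93 away from them. The pairs of PTC1 with MSG5, SDP1 and PTP3 each split evenly, with PTC1 higher on arrays 1 and 3 and lower on arrays 2 and 4.

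The reading frames most like each tested phosphatase gene were taken as the 2 with the smallest Euclidean distance over the 4 arrays. They were ABD1 and OPI3 for MSG5, at distances of 0.074 and 0.091, and SGO1 and SCO2 for SDP1, at 0.087 and 0.11. For PTP3 they were PXL1 and POC4, at 0.036 and 0.054, and for PTC1 TKL2 and PPX1, at 0.092 and 0.12. Between 17.9 and 32.3% of the other 3079 tested genes lay within a distance of 0.5 of a given phosphatase gene, so a small distance does not single out a few genes.

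The genes of the kinases on which these phosphatases act were measured unevenly. SLT2 had log ratios of 1.34, 0.99, 2.07 and 0.79 and rose by 1.30 ± 0.12 (moderated SE, n = 2 cultures, adjusted p = 0.0198). KDX1, the gene of a kinase-like protein related to Slt2, had 1.36, 1.31, 1.95 and 1.26 and rose by 1.47 ± 0.11 (adjusted p = 0.0167). HOG1 had no value on array 1 and -0.12, 0.50 and 0.11 on arrays 2 to 4, and was not tested. FUS3 had -0.49, 0.11 and -0.11 and KSS1, the gene of the MAP kinase of filamentous growth, -0.0026, 1.03 and 0.32 on the same arrays. Of 6 MAP kinase genes 2 were tested, and both were called higher, against 1.53% of all tested genes called higher. This list was chosen with earlier results of these data known, so the count is not independent evidence. Nor is the direction, since genes that the Slt2 and Rlm1 pathway raises set the sign of the ratios. Both calls ended with arrays centred on the median of the tested genes (adjusted p = 0.0732 for SLT2 and 0.0720 for KDX1), with centring and scaling (0.0554 for each), without array 2 (0.124 and 0.0914), without array 4 (0.0745 and 0.0592), on arrays 3 and 4 alone (0.379 and 0.0891) and with arrays 2 and 4 turned, where the means were 0.41 and 0.19 (0.123 and 0.314). The SLT2 call also ended on single arrays without a dye term (adjusted p = 0.0606). Fits without an array used single arrays with a dye term and not culture means. Both calls were kept in such fits without array 1 and without array 3.

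Other parts of the pathways were thinly measured. Of 8 genes of kinases above Slt2 and Hog1, 4 were tested and 0 called, against 2.6% of all tested genes, with a median of -0.085 against -0.10 for all tested genes. The ones furthest from 0 were SSK2, coding for a MAP kinase kinase kinase above Hog1, at -0.26 (adjusted p = 0.180) and PKC1, coding for the protein kinase C above the Slt2 cascade, at -0.20 (adjusted p = 0.254). Of 9 partners and other regulators of the 2 pathways, not all of them negative, 4 were tested and 0 called, with a median of 0.24. So few tested genes cannot be told apart from that share. LRG1, coding for a GTPase-activating protein of Rho1, had 1.34, 2.99, -1.08 and 1.41 on arrays 1 to 4 and a mean of 1.16 ± 0.48 (adjusted p = 0.207), with array 3 alone below 0. Without array 3, on single arrays with a dye term, LRG1 was called at 1.77 (adjusted p = 2.12e-05), and it was also called when arrays 1 and 4 were taken as a culture (adjusted p = 0.00532). YPD1, coding for the phosphorelay protein above Hog1, had 1.07, -0.056, 0.94 and -0.10 on arrays 1 to 4 and a mean of 0.46 (adjusted p = 0.0873). It was below 0 on both arrays with Congo Red in Cy5, and its dye effect of -0.54 was called (adjusted p = 0.0222). With a dye term in a fit of single arrays it was called higher, at an adjusted p of 0.0217 for all 4 arrays, 0.0187 without array 1, 0.00454 without array 3 and 0.0351 when 3 values sufficed, and it was called at an adjusted p of 0.0135 when arrays 1 and 4 were taken as a culture. YPD1 was not called with arrays centred on the tested genes (adjusted p = 0.116), with centring and scaling (0.0936) or on single arrays without a dye term (0.369). Nor was it called without array 2, without array 4 or on arrays 3 and 4 alone. NBP2, coding for the adaptor that links Ptc1 to the Hog1 cascade, had -0.13, -0.18 and -0.13 on arrays 2 to 4. Of 8 transcription factor genes below the kinases, SMP1 alone was tested, at 0.0082 (adjusted p = 0.960), and RLM1 had 0.049 and 0.0063 on arrays 3 and 4.

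Of phosphatase genes that do not belong to the 5, 10 were tested and 0 called, near the 2.6% of all tested genes. Of 6 other PP2C genes 4 were tested, with a median of -0.10 and a range of -0.26 for PTC3 (adjusted p = 0.177) to 0.31 for PTC4 (adjusted p = 0.220). PTC4 was called without array 3, at 0.51 (adjusted p = 0.00364). Of 9 other genes of tyrosine and dual-specificity phosphatases 6 were tested, with a median of -0.14. SIW14 was furthest from 0, at -0.49 ± 0.26 (adjusted p = 0.283), and had -0.91, -1.11, 0.40 and -0.33 on arrays 1 to 4. It was called without array 3, at -0.82 (adjusted p = 0.000637), and at an adjusted p of 0.0222 when arrays 1 and 4 were taken as a culture. YVH1 followed at -0.19 (adjusted p = 0.312). The fits without array 3 used single arrays with a dye term. The 4 tested members of the 5 had a median of -0.073.

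Target genes of Slt2 and Rlm1 give the scale against which the phosphatase values can be read. Of 10 such genes, all tested, 9 were called higher, again against 1.53% of all tested genes, and the same 9 lay above 0 on all 4 arrays. The list overlaps with the genes that set the sign of the ratios, so its direction is not independent evidence. It was also chosen with earlier results of these data known, so the count of calls is not independent evidence either. The genes called were PRM5, YPS3, PST1, CRH1, CWP1, PIR3, SED1, CIS3 and GSC2, at 0.82 for GSC2 to 3.17 for PRM5, and CHS3 was not called at 0.034. Of these 9 calls, 2 were kept with arrays centred on the median of the tested genes (PRM5 and PST1), 7 with medians of all measured rows, 7 with centring and scaling, 6 on single arrays without a dye term, 5 without array 2, 7 without array 4, 3 on arrays 3 and 4 alone and 0 with arrays 2 and 4 turned. The fits without an array used single arrays with a dye term. On arrays 3 and 4 the median of all 10 target genes was 1.35, and 8 of the 10 had a higher mean there than PTP2. The 4 tested phosphatase genes had intervals with upper ends at 0.092 to 0.25. These lay below the means of the 9 called target genes, a gap largely fixed by taking called genes. They lay above the mean of CHS3, at 0.034, which fell inside each of the 4 intervals.

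**Figure D4:**
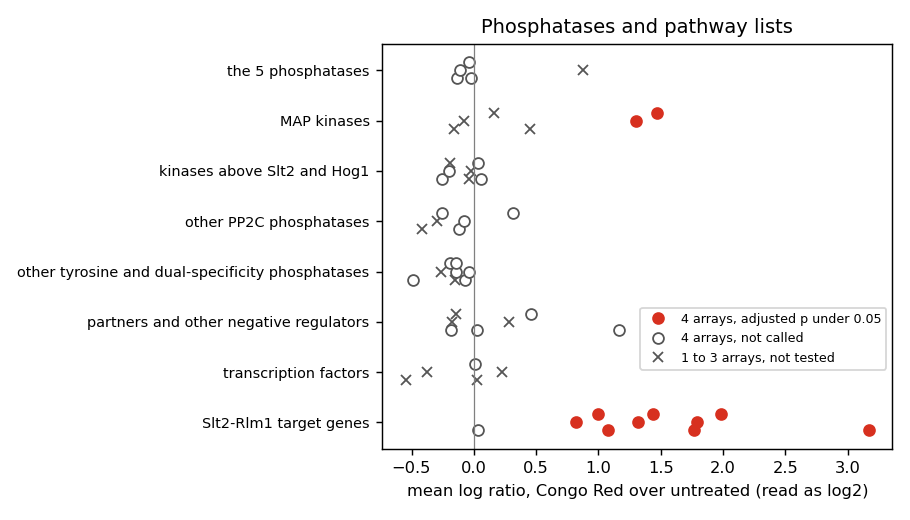
Mean log ratio over the measured arrays (Congo Red over untreated, read as log2) of each gene in the 5 phosphatases and 7 pathway lists, with red points for called genes, open points for tested genes not called and crosses for genes with values on 1 to 3 arrays. SLT2, KDX1 and 9 target genes are red, the 4 tested phosphatase genes sit between -0.14 and -0.024, and the PTP2 cross stands at 0.88.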

How the data were processed

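Per the labels, total RNA was reverse transcribed with Cy5- or Cy3-labelled nucleotides and hybridised to 4 two-channel arrays. The values are log ratios deposited by the authors in 1 table, read here as log2; the log base, numerator, background correction, normalization, build and rule for empty cells appear in none of the sources used here. The 2 rows of control spots were left out. Symbols for 5654 of 6207 reading frames came from the RefSeq table of S288C R64, and sequences were not used here.

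Values were used as deposited. The 3080 rows with 4 values were fitted with limma 3.58.1 in R 4.3.3 on 2 culture means (lmFit, eBayes, intercept only). The labels do not pair arrays with cultures, so both pairings that balance the dyes were fitted and the larger p and SE and the wider ends of the intervals were kept. Benjamini-Hochberg adjustment ran over all rows, at a threshold of 0.05. The lowest SE was 0.087, since variance is pooled over genes. The SEs of MSG5 and SDP1, at 0.087 each, lay at that floor. Their intervals thus rest mostly on the pooled variance and little on the spread of the 2 cultures for each gene. The dye effect came from single arrays with a dye term.

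The 5 phosphatases and all gene lists were chosen with earlier results of these data known, and so was the direction of the ratios. Named genes are all 5 members, called members of each pathway list or else the 2 furthest from 0, and the 2 nearest rows of each tested member. Values of HOG1, FUS3, KSS1, NBP2 and RLM1, which fall outside that rule, were chosen after they were seen. Alternatives were other orientation, centring, scaling, pairing, dye term and filter, and leaving out each array. Fits that left out an array used the remaining single arrays with a dye term.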

Additional observations from a re-analysis of the deposited data

Results flagged for a closer look

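KDX1 had 1 array apart from the others. Its gap, from 1.95 on array 3 to 1.36 on array 1, was 0.852 of the range over 4 arrays, above the 95% critical value of Dixon's test. Of 48 named or listed genes with 4 values this was the only one, chance alone flags about 1 in 20, and 3.25% of all tested genes passed the same limit. No phosphatase gene did.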

How the results depend on the processing

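Of the phosphatase genes, MSG5, SDP1, PTP3 and PTC1 were called in 0 of 14 alternative fits each, with adjusted p-values of 0.203 to 1.00, and SDP1 kept its sign in all 14. Means changed sign for MSG5 with arrays centred on the tested genes (0.053), also scaled (0.073) or centred on all measured rows (0.082), and for PTP3 with the last (0.010). The PTC1 mean was 0.065, 0.033 and 0.095 under these settings, 0.25 with arrays 2 and 4 turned and 0.093 on arrays 3 and 4 alone. On single arrays with a dye term, leaving out an array gave -0.094 to 0.045 for PTC1 and -0.069 to -0.0048 for MSG5. The same fits gave -0.20 to -0.075 for SDP1 and -0.19 to -0.033 for PTP3. For PTP2 the measured values left without an array were 0.75 to 1.01. The PTP2 mean was 0.13 with arrays 2 and 4 turned and otherwise 0.75 to 1.04. Where a fit called a small share of all genes, 4 genes would seldom include a call, so such a fit says little about stability. Some shares were larger, such as 787 of 3080 genes with arrays 1 and 4 as a culture, and 0 of the 4 were called there too. With 4 genes, 0 calls would not be unusual at that share either, so this fit also says little about stability. In place of 80 called genes, limma gave 0 with arrays 2 and 4 turned (857 at an unadjusted p under 0.05), 4 after centring on the tested genes, 32 on all measured rows and 31 with scaling. It gave 320 for single arrays with a dye term, 36 without it, 787 with arrays 1 and 4 as a culture, 214 with a dye term when 3 values sufficed (3677 genes tested, to be set against the 320), 9 on arrays 3 and 4 alone, and 375, 13, 823 and 25 without arrays 1, 2, 3 and 4. The counts without an array come from single arrays with a dye term, which takes arrays and not cultures as units. They too are to be set against the 320 and not the 80. Centring on all measured rows and arrays 3 and 4 alone were added after the data were seen, and the cause of these changes in count was not tested. Each ratio already pairs the treated and untreated part of a culture, so no further replicate block was fitted. Among pathway genes, with arrays 2 and 4 turned the sign changed for YPS3 (-0.42), PST1 (-0.22), CWP1 (-0.31), CIS3 (-0.34), LRG1 (-1.04), SMP1 (-0.079), PTC3 (0.14), PTC4 (-0.046), SIW14 (0.23) and YVH1 (0.027). SIW14 was 0.033 on arrays 3 and 4 alone, and SMP1 gave -0.052 to 0.069 without an array. The number of arrays limits precision, and signal over background cannot be seen in ratios.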
